A study of Mus musculus with 2 samples.

Results

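The genes described here encode complement C1q and other complement components and receptors: C1qa, C1qb, C1qc, C4b, C3, Cfb, Cfp, C3ar1 and C5ar1. They were chosen by gene symbol in the annotation of the array's probes. Of the 9 genes, 7 had a listed probe, with 1 probe each, out of 19084 genes and 26423 probes measured. C3 and C4b had no listed probe and were not analysed here. The samples are 2 fractions of naïve, untreated NOD-SCID spleen, from mice 6 to 8 weeks old, sorted without any culture. Z(+) cells bind the peptide Zfra and Z(-) cells do not, as far as the paper's use of the name tells. In NOD-SCID mice a mutation of Prkdc (scid) stops the development of T and B cells, and the NOD background carries a loss-of-function allele of Hc, the gene of complement C5. The design text names the number 8 for the spleens or spleen cells without saying whether they were pooled. Each fraction gave 1 sample of total RNA, hybridised in 2 technical arrays that the authors combined into 1 linear intensity per probe.

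Complement is a cascade of plasma proteins that marks microbes, immune complexes and dying cells. C1q, built of A, B and C chains, starts the classical pathway when it binds such surfaces, and lectins and ficolins start the lectin pathway. Factor B and properdin serve the alternative pathway. The pathways meet at C3, and the fragments C3a and C5a act through the receptors C3aR and C5aR1. Most components come from the liver, whereas C1q and properdin are made largely by myeloid cells, and macrophages are a main source of C1q in the spleen.

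All 3 chains of C1q had a higher intensity in Z(+) than in Z(-), by 2.97-fold to 4.15-fold, and they were the 3 of the 7 genes past 2-fold. No gene of the 7 was at least 2-fold lower. Over all 19084 genes, the share past 2-fold was 2.44% upward and 6.27% downward. The median log2 difference, Z(+) minus Z(-), was 1.91 for the C1q chains and 0.42 for Cfb, Cfp, C3ar1 and C5ar1, beside 0.03 over all genes. Neither the mice nor the sort were replicated, since each fraction is 1 sample, so no difference has a test or a p-value. In RNA of whole fractions, more cells of a type and more RNA per cell cannot be told apart.

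For C1qa, the gene of the A chain, the intensity was 19393 in Z(+), against 6540.4 in Z(-), a log2 difference of 1.57. C1qb, the gene of the B chain, gave 5077 in Z(+), against 1223 in Z(-), a log2 difference of 2.05. C1qc, the gene of the C chain, gave 4079.7 in Z(+), against 1088 in Z(-), a log2 difference of 1.91. The log2 differences of the chains thus lay within 0.49 of each other. Ordered by log2 difference from the highest down, C1qb stood at place 84, C1qc at place 99 and C1qa at place 160 among the 19084 genes. Dim genes give large ratios easily. In the brighter 9542 genes, those with a mean log2 intensity of 6.92 or more, 2.12% were at least 2-fold higher, and there C1qb, C1qc and C1qa stood at places 27, 35 and 62. Intensities of different probes depend on the probe, so the levels of the chains were not compared with each other.

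The deposited values below an intensity of 2000 could be split into the 2 scanned arrays behind them, because each array had been scaled by a constant of its own. In Z(-), these arrays read 1229.6 and 1216 for C1qb and 1071 and 1104 for C1qc. The Z(+) values of these genes and both values of C1qa, Cfb and Cfp were too bright for the split. Between 400 and 2000, 95% of probes had arrays within 1.14-fold of each other in Z(+) and within 1.11-fold in Z(-), and the C1q differences, of 2.97-fold to 4.15-fold, were larger than that. The spread of the brighter values, which include all Z(+) values of C1q, was not measured. A second technical spread is that between probes of 1 gene. Over 702 brighter genes with 2 probes, the log2 differences of the paired probes differed with an SD of 0.63 and had a Pearson correlation of only 0.48. Each C1q gene had 1 probe. The differences of C1qa, C1qc and C1qb were 2.47, 3.01 and 3.24 of these SDs, while the gap between C1qa and C1qb was smaller than 1 SD.

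**Figure D1:**
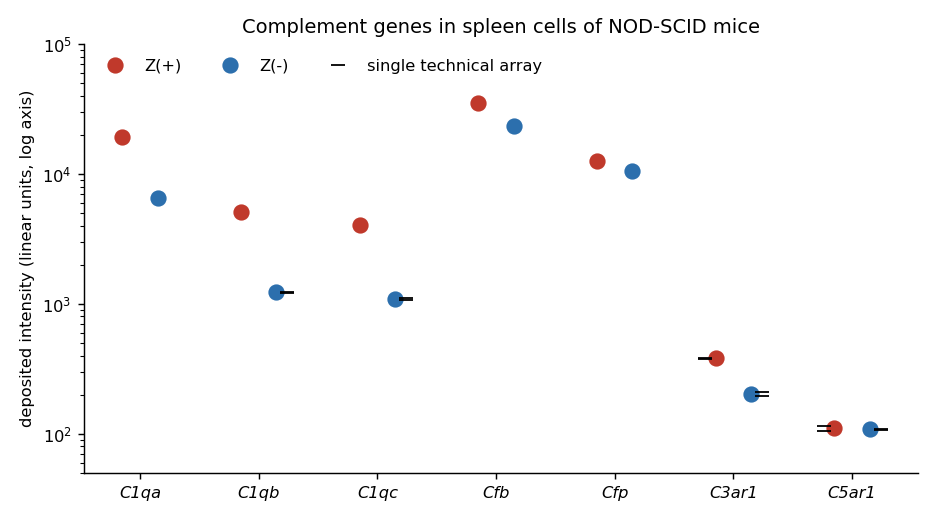
Intensity of each complement gene in Z(+) (red) and Z(-) (blue) on a log axis, 1 deposited value per fraction, with single technical arrays as black dashes where the value could be split. The C1q genes and C3ar1 stand apart between the fractions, and the points of C5ar1 lie at 110.2 and 108.

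The C1q genes lie next to each other on mouse chromosome 4, in the order C1qb, C1qc and C1qa. The nearest genes with a listed probe on either side had nearly equal intensities in the fractions. Epha8, an ephrin receptor, had 151 in Z(+) and 141 in Z(-), and Zbtb40, a zinc finger gene, had 674 and 664. On the other side Tex46 had 124 in Z(+) and 118 in Z(-), and Kdm1a, a histone demethylase, had 2454 and 2299. The log2 differences of these 4 neighbours ran between 0.02 and 0.10, so the higher intensity was seen in the 3 C1q genes and not in the measured genes around them. Tex46 and Epha8 lay near the median intensity of all genes, 121, and whether they were detected above background could not be judged.

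**Figure D2:**
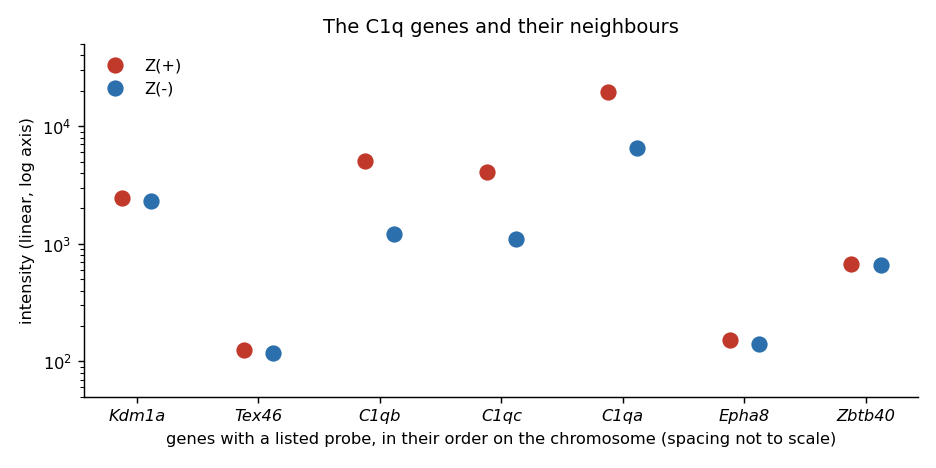
Intensity in Z(+) (red) and Z(-) (blue), on a log axis, of the C1q genes and the measured genes on either side, in chromosomal order with spacing not to scale. The points of the neighbours nearly coincide, within 1.07-fold, while those of C1qb, C1qc and C1qa are 4.15-fold, 3.75-fold and 2.97-fold apart.

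The sequences before the start of C1qb and C1qc are shown because these genes moved together and had the largest differences of the set. They are the 250 bases before the gene's start, from RefSeq on GRCm38.p6, on the minus strand, at chr4:136886201-136886450 for C1qb and chr4:136892915-136893164 for C1qc. Of the 9 genes, 6 matched the promoter table, and C1qa, Cfb and C4b did not. Capitals mark GAGGAA, a core of the binding site of PU.1, a transcription factor of myeloid cells, in either orientation (TTCCTC on the opposite strand).
C1qb: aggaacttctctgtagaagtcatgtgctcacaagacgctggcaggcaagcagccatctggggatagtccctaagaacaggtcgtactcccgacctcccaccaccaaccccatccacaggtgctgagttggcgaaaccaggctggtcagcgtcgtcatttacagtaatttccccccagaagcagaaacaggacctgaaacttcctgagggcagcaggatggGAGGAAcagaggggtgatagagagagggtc
C1qc: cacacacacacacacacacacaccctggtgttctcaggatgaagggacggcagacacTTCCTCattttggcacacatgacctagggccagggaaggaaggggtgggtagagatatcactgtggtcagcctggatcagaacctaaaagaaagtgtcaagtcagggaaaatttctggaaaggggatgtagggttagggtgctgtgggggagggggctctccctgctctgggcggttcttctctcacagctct
The motif begins 30 bases before the start in C1qb and 193 bases before it, as TTCCTC, in C1qc. It is common, with a match in 23.3% of the 32851 promoter windows of this length, and none of the other 4 matched genes held it. The composite site of ETS factors with interferon regulatory factors (EICE), and TGCTGAC, a core of MAF factor sites, were searched in both orientations as well and matched 0 of the 6 windows, against 2.30% and 3.81% of all windows. A match is a match of letters only. These motifs were chosen after the values were seen.

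The genes of the alternative pathway were bright in both fractions and differed less. Cfb, which encodes factor B, the protease of the alternative C3 convertase, gave 35020.3 in Z(+), against 23311 in Z(-), which is 1.5-fold higher in Z(+). Cfp, which encodes properdin, the stabilizer of that convertase, had 12474 in Z(+) and 10510.4 in Z(-), or 1.19-fold. The log2 difference of Cfb, 0.59, exceeded that of 92.2% of all genes, and that of Cfp, 0.25, exceeded 71.9%. Both are larger than the spread of arrays seen below 2000, which was not measured at their brightness, and neither exceeds the SD of 0.63 between probes of 1 gene. The highest intensity of any probe was 65296 in Z(+) and 65528 in Z(-).

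The receptors for the fragments of C3 and C5 differed from each other. C3ar1, the C3a receptor, had 380.4 in Z(+) and 202 in Z(-), 1.88-fold higher in Z(+) and just short of 2-fold. Its arrays read 382 and 378 in Z(+), against 209 and 195 in Z(-). The arrays did not overlap, and any pairing of an array of Z(+) with one of Z(-) gave a log2 difference between 0.86 and 0.97. C5ar1, the C5a receptor, had 110.2 in Z(+) and 108 in Z(-), with arrays at 106 and 115 in Z(+) and at 107 and 108 in Z(-). These arrays overlapped, and C5ar1 was the only one of the 7 genes below the median brightness of all genes. Arrays without overlap are common here: over 14150 genes with 1 probe and 4 recovered arrays, both arrays of Z(+) were above both of Z(-) for 37.9% and below both for 32.6%. C5ar2, the second receptor of C5a and the next gene on the same chromosome, was lower in Z(+), with 391 in Z(+) and 602 in Z(-). Its arrays lay at 396 and 387 in Z(+) and at 615 and 589.9 in Z(-).

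A list of 46 further complement genes, of which 40 had a listed probe, shows where the rest of the system lay. In it 2 genes passed 2-fold upward in Z(+), 4 passed it downward and 34 stayed within 2-fold, beside 2.44% and 6.27% of all genes. Its median log2 difference was 0.12. Of the list, 20 genes were below the median brightness of all genes, where the technical arrays disagree most. Among the 31 genes whose 4 arrays were recovered, both arrays of Z(+) were above both of Z(-) for 13, below them for 7 and overlapping for 11, where the shares over all genes with recovered arrays were 37.9% above and 32.6% below.

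Of the starters of the lectin pathway, the ficolins Fcna and Fcnb passed 2-fold, in opposite directions, and the others stayed within it. Fcna, which encodes ficolin A, a lectin that mouse macrophages of spleen and liver make, gave 3723 in Z(+), against 1065 in Z(-). It was 3.49-fold higher in Z(+), a log2 difference of 1.81 that falls among those of the C1q chains. Fcnb, which encodes ficolin B, a lectin of immature neutrophils and other bone marrow myeloid cells, had 7.33 in Z(+) and 124 in Z(-). Its arrays read 12.6 and 2.07 in Z(+), against 125 and 124 in Z(-), so the Z(+) value is uncertain, but it lay far below Z(-) on both arrays. The mannose-binding lectins differed little, with Mbl1 at 596 in Z(+) and 468 in Z(-) and Mbl2 at 146 and 136. Colec10 and Colec11, which encode collectins of the same pathway, were 1.22-fold and 1.24-fold higher in Z(+). Masp1, a protease of this pathway, was dim at 18.7 in Z(+) and 66.5 in Z(-), and Masp2 was dimmer still at 8.66 and 8.03. The difference of Masp1 had the same sign in every pairing of its arrays, with log2 differences between -2.56 and -1.32.

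**Figure D3:**
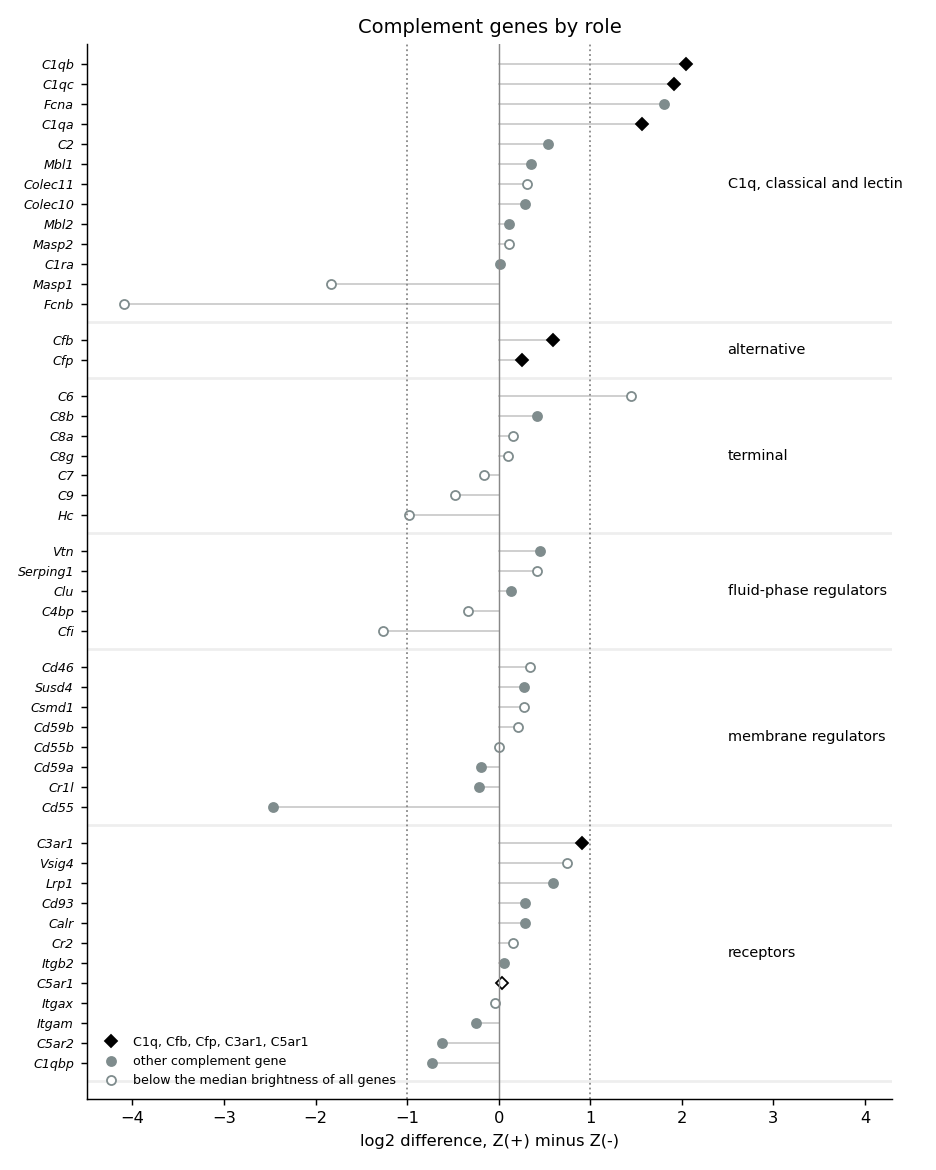
Log2 difference, Z(+) minus Z(-), of each measured complement gene, grouped by role, with C1q, Cfb, Cfp, C3ar1 and C5ar1 as diamonds and the other genes as circles. Open symbols are genes below the median brightness of all genes, and dotted lines mark 2-fold. C1qb, C1qc, Fcna and C1qa lead at the right, and Fcnb, Cd55, Masp1 and Cfi lie past 2-fold at the left.

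C1ra and C2, the measured proteases that act downstream of C1q, differed less than the C1q chains did. C1ra, the gene of the C1r protease that C1q activates, had 170.1 in Z(+) and 169 in Z(-), with arrays at 168 and 172 in Z(+) and at 166 and 171 in Z(-). C2, the protease of the classical C3 convertase, had 222 in Z(+) and 152 in Z(-), or 1.46-fold. Its array pairings gave log2 differences from 0.48 to 0.61. C2 lies beside Cfb on chromosome 17, and the fold of Cfb was close to it. The other nearest measured neighbours of Cfb, Skiv2l, Nelfe and Zbtb12, had log2 differences of -0.12, -0.46 and 0.46. C1rb, C1s1, C1s2, C4a and Cfd had no listed probe.

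Genes of the terminal pathway, which builds the membrane attack complex, were mostly dim. C6 was 2.72-fold higher, at 156 in Z(+) and 57.5 in Z(-), with arrays at 142 and 171 in Z(+) and at 57.4 and 57.6 in Z(-). Hc, the gene of C5, had 75.6 in Z(+) and 149 in Z(-), or 1.98-fold lower. A probe for Hc does not show whether a full C5 protein can be made in this strain. C8b had 628 in Z(+) and 468 in Z(-). C7, C8a, C8g and C9 had intensities between 4.22 and 87.9 in Z(+) and between 4.70 and 82.0 in Z(-), with log2 differences from -0.48 to 0.16.

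Among regulators, which keep complement from host cells, Cd55 had the largest difference. Cd55 encodes decay-accelerating factor, which takes apart C3 convertases on the cell surface, and had 74.5 in Z(+) and 411 in Z(-). It was 5.52-fold lower in Z(+), with arrays at 75.5 and 73.4 in Z(+) and at 439 and 383 in Z(-). Cd55b, its close relative, was near the floor of the scale at 6.01 in Z(+) and 5.99 in Z(-). Cr1l, which encodes Crry, the main membrane regulator of rodent blood cells, was bright and similar in both, with 3657 in Z(+) and 4259 in Z(-). Cd59a, a gene of the inhibitor of the membrane attack complex, had 122 in Z(+) and 139 in Z(-). Cd46, Susd4, Csmd1 and Cd59b were 1.15-fold to 1.26-fold higher in Z(+).
Of the fluid-phase regulators, Vtn, the gene of vitronectin, had 15242 in Z(+) and 11171 in Z(-), and Clu, the gene of clusterin, had 129 and 117. Serping1, the gene of the C1 inhibitor, had 35.6 in Z(+) and 26.5 in Z(-). Cfi, the gene of factor I, counted as 2.39-fold lower, but from values of 2.52 in Z(+) and 6.03 in Z(-) whose array pairings ran from -2.23 to 0.06. C4bp was as dim, with 5.59 in Z(+) and 7.01 in Z(-).

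None of the 10 other receptors and C1q-binding proteins was past 2-fold in either direction, beside 2.44% of all genes upward and 6.27% downward. Of the 10, 6 were higher and 4 lower in Z(+), beside 54.1% of all genes higher by any size. Vsig4, the complement receptor of tissue macrophages known as CRIg, was dim, with 28.5 in Z(+) and 17.0 in Z(-). Itgam and Itgb2, which form complement receptor 3, were bright, at 14242 in Z(+) and 16929 in Z(-) for Itgam, a log2 difference of -0.25, and at 39940.2 and 38329.6 for Itgb2, a log2 difference of 0.06. Itgax, the alpha chain of complement receptor 4, gave 20 in Z(+) and 20.5 in Z(-). Cr2, the receptor of B cells and follicular dendritic cells, gave 29.0 in Z(+) and 26.0 in Z(-). Lrp1, a large endocytic receptor that with calreticulin takes up C1q-coated cells, had 8525 in Z(+) and 5662 in Z(-), and Calr, the gene of calreticulin, had 4586 and 3763. Cd93 had 4777 in Z(+) and 3911 in Z(-). C1qbp, the gene of a mainly mitochondrial protein that binds the heads of C1q and that the paper follows as a protein partner of WWOX, was 1.66-fold lower, at 703 in Z(+) and 1166 in Z(-). Its arrays read 700.0 and 705 in Z(+), against 1180.1 and 1153 in Z(-), without overlap.

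**Figure D4:**
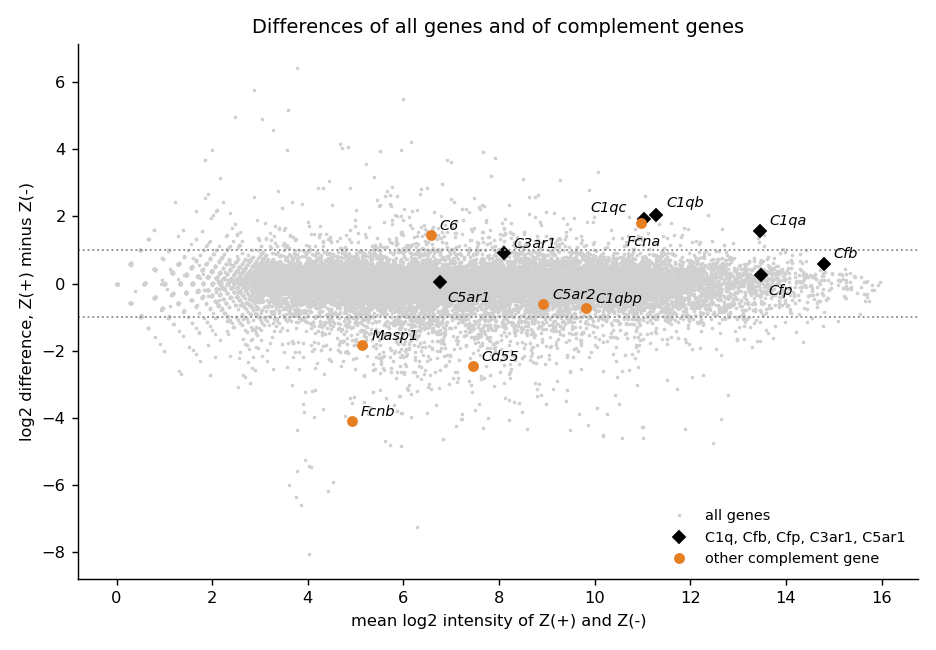
Log2 difference, Z(+) minus Z(-), against the mean log2 intensity of both fractions for all 19084 genes (grey), with the complement genes C1q, Cfb, Cfp, C3ar1 and C5ar1 (black diamonds) and selected others (orange). C1qa, C1qb and C1qc lie above the 2-fold line at high intensity, where few genes do, and Fcna lies beside C1qb and C1qc.

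Markers of macrophages were higher in Z(+) as well. Of 12 macrophage markers, 5 passed 2-fold upward and none downward, beside 2.44% and 6.27% of all genes. All 12 were higher in Z(+) by some amount, beside 54.1% of all genes. The median log2 difference of the markers was 0.82. The list was chosen with earlier results of these data known, so these values do not stand apart from that choice. Mertk, a receptor for dying cells, had 663 in Z(+) and 131 in Z(-), and Timd4, a receptor for phosphatidylserine, had 342 and 73.5. Marco, a scavenger receptor of marginal zone macrophages, was 3.39-fold higher, and Vcam1, an adhesion molecule of splenic macrophages, 3.05-fold. The list summed to an intensity of 59582 in Z(+), against 40243 in Z(-), a sum set mostly by its brightest probes, among them that of Cd68, a lysosomal protein, with 20381 in Z(+) and 19559.8 in Z(-). The part of the macrophage markers in the C1q difference was not tested.
The medians of the other lists were lower. Of 8 monocyte markers 1 was at least 2-fold higher and none lower, beside 2.44% and 6.27% of all genes, with a median of 0.18. Neutrophil markers had a median of -0.51, which does not describe the whole list. Among its 9 genes, Cxcr2, Mmp8, Mmp9 and Ngp passed 2-fold downward, with log2 differences of -2.09, -1.95, -1.88 and -1.47. The other 5 neutrophil genes stayed within 2-fold, and 2 of them were higher in Z(+) by some amount. Why the neutrophil genes differed among themselves was not tested. The median was -0.97 for conventional dendritic cell markers, -1.78 for T cell markers, -4.29 for NK cell markers and -4.34 for basophil markers. B cell markers lay at -0.07. Markers of stromal cells and hepatocytes, which make several complement proteins, were all below the median brightness of all genes, with a summed intensity of 226 in Z(+) and 319.9 in Z(-) for 7 stromal genes and of 86.3 and 60 for 3 hepatocyte genes.

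**Figure D5:**
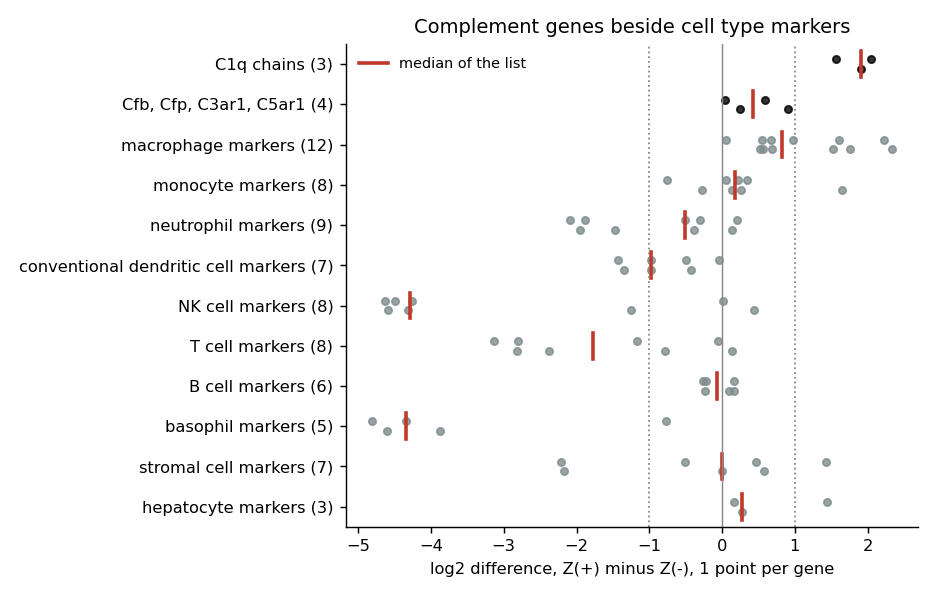
Log2 difference, Z(+) minus Z(-), 1 point per gene, for the C1q chains, for Cfb, Cfp, C3ar1 and C5ar1, and for marker lists of cell types, with the number of genes in parentheses, red bars at the list medians and dotted lines at 2-fold. The C1q chains, with a median of 1.91, lie at the upper end of the macrophage markers, whose highest value is 2.34, and apart from NK cell and basophil markers, whose medians are -4.29 and -4.34, although Eomes (0.44) and Ncr1 (0.007) among the NK cell markers and Ms4a2 (-0.77) among the basophil markers lie far from these medians.

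The genes nearest to the mean of the C1q chains, in mean log2 intensity and log2 difference together, were Treml4, Vcam1, App, Adamdec1 and Sik1, at distances of 0.20 to 0.46. This likeness rests on 2 samples, and the higher intensity of these genes in Z(+) follows from how they were picked. Vcam1 is also on the macrophage list and Treml4 on the monocyte list. Vcam1 had 6964 in Z(+) and 2282 in Z(-). App, the gene of the amyloid precursor protein, had 5804 in Z(+) and 1659.8 in Z(-). Sik1, a kinase gene, had 5809.9 in Z(+) and 2209 in Z(-). Treml4, a receptor of splenic macrophages and nonclassical monocytes, and Adamdec1, a secreted protease of macrophages, were 3.15-fold and 2.74-fold higher as the mean of 2 probes each that disagree in size, with log2 differences of 0.79 and 2.52 for Treml4 and of 0.59 and 2.32 for Adamdec1.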

How the data were processed

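The authors deposited 1 linear intensity per probe for Z(+) and for Z(-). Per the labels, total RNA went through amplification and Cy5 labelling before hybridization on 2 technical arrays per sample. How the arrays were scanned, corrected for background and normalized is not given in the sources used here. Detection above background could not be judged. In each sample 37 probes had a value at or below 0, and values under 1 were set to 1 before log2.

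The platform annotation lists 1 gene symbol for 21876 probes and none for 4547, and 21825 probes matched RefSeq by gene ID. Probes of a gene were averaged on the log2 scale. The difference is Z(+) minus Z(-), and a gene was counted as higher or lower at 1 or more on the log2 scale, which is 2-fold. The genes and lists were chosen with earlier results of these data known. Named genes are all genes of the set and of the further complement list, up to 4 of each cell type list by size of difference, and the 5 nearest to the mean of the C1q chains. Cd68, Eomes, Ncr1 and Ms4a2 were named outside this rule. The chromosomal neighbours of C1q, Cfb and C3ar1 were chosen by position and are all named. Of the nearest measured neighbours of C5ar1 and Cfp, only C5ar2 is named. The C1q-domain relatives named were chosen after their values were seen.

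Technical arrays were recovered by searching for the pair of whole numbers that gives a value with the sample's factors, 0.968 and 1.03 in Z(+) and 0.990 and 1.01 in Z(-). This worked for 99.5% and 99.8% of values below 2000. Where several pairs gave a value, 1 was taken only if it alone lay within 1.5-fold, a rule that favours close arrays. On simulated pairs between 1000 and 2000, 84.3% were resolved in Z(+) and 95.5% in Z(-), and 100.0% of these were right. The simulated pairs were drawn close together, so this share does not cover arrays that differ more. Values without this structure were resolved in 35.0% and 60.5% there, so a single split above 1000 rests on the structure seen at lower values. Arrays limit the precision by their number, and no depth applies. Alternatives were a pseudocount of 50, centring on the median, quantile normalization, loess with a span of 0.3, the brightest probe, brighter genes only and thresholds of 0.58 and 2. Python 3.11.15, numpy 2.4.6, pandas 2.3.3 and statsmodels 0.14.6 were used.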

Additional observations from a re-analysis of the deposited data

How the results depend on the processing

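Of the 7 genes, C1qa, C1qb, C1qc, Cfb, Cfp and C3ar1 kept the direction of their log2 difference under every alternative run. C5ar1, at 0.04, did so too except over single arrays, where it ran from -0.03 to 0.10. C3ar1 and C5ar1 moved by less than 0.201, the spread of arrays at their brightness. The C1q genes, Cfb and Cfp moved by less than 0.102, a spread of arrays measured at intensities of 400 to 2000. All Z(+) values of these genes are brighter, so whether they moved by less than their own technical spread could not be judged. C1qa ran from 1.56 to 1.64, C1qb from 2.01 to 2.13, C1qc from 1.86 to 1.98, Cfb from 0.59 to 0.66, Cfp from 0.25 to 0.33 and C3ar1 from 0.77 to 1.00. The counts depend on the threshold. At 0.58 on the log2 scale, 5 of the 7 genes were higher in Z(+), with Cfb and C3ar1 added, and at 2 only C1qb was, so 1. Over all genes 8.05% were higher and 13.7% lower at 0.58, and 0.466% higher and 1.49% lower at 2. Of the 40 further complement genes, 4 were higher and 7 lower at 0.58, and 0 higher and 2 lower at 2. With a pseudocount of 50 these were 1 and 2, and among brighter genes only 1 and 1. The median of the 7 genes, 0.91, was 1.24 over the brighter genes and 0.77 with the pseudocount. With it the medians were 0.71 for macrophage, -0.62 for conventional dendritic cell, -3.08 for NK cell, -1.12 for T cell and -3.59 for basophil markers. Neutrophil markers were at -0.40 with quantile normalization and -0.99 over brighter genes, T cell markers at -2.81 over brighter genes, and NK cell markers at -3.53 with the brightest probe. Other named genes were not run singly. The cause of these changes was not tested. No paired analysis was possible because each fraction is 1 sample. Leaving out a sample was not possible either.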

Other observations

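C1q gives its name to a domain that many secreted proteins share. Of 12 measured C1q-domain relatives, none was at least 2-fold higher in Z(+), 1 was at least 2-fold lower, 5 had a higher and 7 a lower intensity in Z(+), and the median log2 difference was -0.13. Over all genes 2.44% were at least 2-fold higher, 6.27% at least 2-fold lower and 54.1% higher by any size. C1qtnf12, which encodes an adipokine, was the gene past 2-fold, at 123 in Z(+) and 349 in Z(-). C1ql2 had 171 in Z(+) and 131 in Z(-), the highest difference of these relatives at 0.38.

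Near C3ar1 on chromosome 6, with Foxj2 between them, the glucose transporter gene Slc2a3 was 3.77-fold lower, at 2432 in Z(+) and 9164 in Z(-). The other nearest measured neighbours of C3ar1 were Foxj2 at 1224 in Z(+) and 1036 in Z(-), Necap1 at 1739 and 1386, and Clec4a1, a lectin receptor of myeloid cells, at 4267 and 3224.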
